A study of Homo sapiens with 8 samples.

Results

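The G2 and mitosis genes are 35 listed protein-coding genes that drive cells from the end of DNA synthesis through division, out of 19970 protein-coding genes on chromosomes 1 to 22 and X. They were taken by name and placed by their RefSeq position on hg38, and each gene was widened by 1 kb on both sides. The readout was KAS-seq, which tags unpaired guanines of living cells with N3-kethoxal, pulls down the tagged DNA and sequences it. Peaks therefore mark single-stranded DNA, such as the bubble that RNA polymerase opens. HEK293T, an established line derived from human embryonic kidney, was used, and the files hold opened DNA and no RNA, so the line was taken from the sample titles (another label field gives the line a different number in each sample). The vitamin C group (2 labelled libraries) received 0.5 mM vitamin C (ascorbic acid) in the medium over 10 min, followed by 10 min of labelling with N3-kethoxal at 5 mM. The control group (2 labelled libraries) had the same labelling without vitamin C. The 4 input libraries of the series were not analysed here. No label says that the replicates are separate cultures, so the p-values cover nothing beyond the spread among these libraries, and that spread may be technical. With 2 libraries against 2, the exact two-sided permutation test cannot go below p = 0.3333, so no difference for a single gene could reach 0.05.

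Entry into mitosis depends on CDK1 bound to cyclin A or cyclin B. WEE1 holds CDK1 inactive by phosphorylation and the CDC25 phosphatases release it. Polo and Aurora kinases then build the spindle, the spindle checkpoint delays chromosome separation until kinetochores are attached, and the anaphase-promoting complex (APC/C) with its activator CDC20 ends mitosis by marking securin and cyclin B for destruction. Many of these genes are transcribed mainly in late cell cycle phases, through promoter elements known as the cell cycle genes homology region (CHR) and the CCAAT box, which the MuvB-based complexes and NF-Y are known to bind. A culture that is not synchronised holds cells of all phases. The libraries are bulk samples, in which fewer cells with an opened gene and less opening per cell cannot be told apart.

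The promoters of 5 members are given with their letter matches to the CHR and the CCAAT box, beside the peaks that did or did not cover them. They are RefSeq sequences of GRCh38.p14, from 250 bases before to 50 bases after the annotated start, written 5′ to 3′ on the strand of the gene, with each CHR (TTTGAA or its complement TTCAAA) and CCAAT box (CCAAT or its complement ATTGG) in capitals. CDK1 (chr10:60778081-60778380, plus strand), BUB1B (chr15:40160819-40161118, plus strand) and KIF11 (chr10:92592880-92593179, plus strand) are shown because a peak reached this window in all 4 libraries. HMMR (chr5:163460382-163460681, plus strand) is shown as one of 2 members, with KIF20A, that were covered in both controls and in neither vitamin C library, and TOP2A (chr17:40417847-40418146, minus strand) because it was covered in 1 vitamin C library.
CDK1: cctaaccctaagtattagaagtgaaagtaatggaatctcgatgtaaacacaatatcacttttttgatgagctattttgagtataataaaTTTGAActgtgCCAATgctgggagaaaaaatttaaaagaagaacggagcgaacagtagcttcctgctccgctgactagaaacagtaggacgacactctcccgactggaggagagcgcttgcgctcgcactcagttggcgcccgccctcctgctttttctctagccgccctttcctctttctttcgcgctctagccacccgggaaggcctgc
BUB1B: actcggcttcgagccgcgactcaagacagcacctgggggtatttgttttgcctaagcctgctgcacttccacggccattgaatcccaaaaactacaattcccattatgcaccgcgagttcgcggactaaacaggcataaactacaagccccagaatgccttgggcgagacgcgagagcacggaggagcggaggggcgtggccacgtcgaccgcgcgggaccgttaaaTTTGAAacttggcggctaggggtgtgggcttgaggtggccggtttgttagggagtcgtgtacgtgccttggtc
KIF11: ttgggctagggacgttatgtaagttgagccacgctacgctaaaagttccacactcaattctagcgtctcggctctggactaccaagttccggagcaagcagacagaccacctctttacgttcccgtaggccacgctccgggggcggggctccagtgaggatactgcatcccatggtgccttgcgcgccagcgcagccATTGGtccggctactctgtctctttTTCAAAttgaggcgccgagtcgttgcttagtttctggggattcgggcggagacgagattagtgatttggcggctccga
HMMR: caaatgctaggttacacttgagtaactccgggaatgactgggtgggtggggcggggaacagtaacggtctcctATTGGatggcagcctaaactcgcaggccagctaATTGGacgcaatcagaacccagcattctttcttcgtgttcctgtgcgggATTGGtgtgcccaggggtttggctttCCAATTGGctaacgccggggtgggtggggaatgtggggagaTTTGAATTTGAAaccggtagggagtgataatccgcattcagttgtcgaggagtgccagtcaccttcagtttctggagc
TOP2A: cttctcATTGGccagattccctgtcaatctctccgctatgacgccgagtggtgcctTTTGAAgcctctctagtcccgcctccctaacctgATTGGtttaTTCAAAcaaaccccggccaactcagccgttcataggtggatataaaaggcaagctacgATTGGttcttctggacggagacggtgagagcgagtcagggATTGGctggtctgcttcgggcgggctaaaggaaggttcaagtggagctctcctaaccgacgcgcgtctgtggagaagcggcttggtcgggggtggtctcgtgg

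A promoter sequence was matched for 28 of the 35 members, and the other 7 are AURKA, BIRC5, WEE1, TPX2, UBE2C, BUB3 and TTK. Of the 28 promoters, 17 (60.7%) held a CHR, against 12.2% of 15811 promoters of protein-coding genes. A CCAAT box was present in 21 (75%), against 36.4% of all promoters, and 14 (50%) held both, against 5.10%. In HMMR, 2 CHR matches lie side by side at positions -28 and -22 from the start, and 2 of its 5 CCAAT box matches overlap each other. The median GC content of the members' promoters was 61.2%, against 62.7% over all promoters. These matches are a description of the letters, and binding was not measured here.

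The peaks that touched these 28 promoter windows numbered few. A peak reached the window in 4 and 5 members in vitamin C replicates 1 and 2, against 11 and 6 members in control replicates 1 and 2. Over all 15811 promoters the shares were 4.42% and 4.36% with vitamin C and 10.1% and 8.64% in controls. CDK1, BUB1B and KIF11 were the members reached in all 4, a pattern found at 3.13% of all promoters. At KIF11 the peaks covered 249 and 195 of the 300 promoter bases with vitamin C and 249 and 231 in controls, so the 4 libraries placed the opened stretch at the same site. At HMMR the peaks covered 0 and 0 bases with vitamin C and all 300 in each control. KIF20A had the same pattern, with 0 and 0 bases covered with vitamin C and 300 and 113 in controls, and 2.31% of all promoters showed it. At TOP2A they covered 0 and 155 bases with vitamin C, against 210 and 190 in controls.

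Across all genes the vitamin C lists were shorter, and each value below is to be read beside that. They held 9816 and 9896 peaks covering 4.92 and 4.73 Mb, against 30351 and 24111 peaks covering 15.6 and 12.9 Mb in the controls. The mean fragment coverage solved from the authors' fold and p-values was 1.22 and 0.871 fragments per position with vitamin C and 0.817 and 0.849 in controls. The value of vitamin C replicate 1 is before the scaling by 0.776 that its peaks needed. Input coverage was not examined, and the part of coverage in the length of the lists was not tested. The lowest summit that was called stood at 8.16 and 8.04 times the mean coverage with vitamin C, against 7.34 and 7.07 times in controls. Peaks were called in each library on its own, so presence is a threshold call and a gene without a peak is not shown to be closed.

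Opened DNA was common at the G2 and mitosis genes in control cells and covered less of them after vitamin C. A peak was found at 20 and 19 of the 35 members with vitamin C (57.1% and 54.3%), against 34 and 30 (97.1% and 85.7%) in controls. Over all protein-coding genes the shares were 23.04% and 22.99% with vitamin C and 43.2% and 39.0% in controls. The members' median length was 28.5 kb, against 24.2 kb for all genes. Of the 35, 29 (82.9%) had a peak in both controls, against 35.3% of all protein-coding genes.

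Of those 29 genes, 8 (27.6%) had no peak in either vitamin C library, against 26.9% of the 7045 protein-coding genes with a peak in both controls. They are CDC25C, PLK1, BUB1, KIF2C, HMMR, NUSAP1, ECT2 and MKI67, and they are called lost here in the sense that no peak was listed. A peak stood in all 4 libraries at 17 genes (58.6%), called kept, against 49.7% of all such genes. A further 4 genes (13.8%), PTTG1, TPX2, ANLN and TOP2A, had a peak in 1 vitamin C library, against 23.4%. No member had peaks in both vitamin C libraries and in neither control, a pattern found at 0.025% of all protein-coding genes. The share of members lost was thus close to that of all genes. Without widening the genes, 11 members were kept and 12 lost, of 29 with a peak in both controls. With every list held to its 9816 peaks of lowest q, the length of the shortest list, 19 members had a peak in both controls. Of these, 2 (HMMR and PLK1) were lost and 15 kept. Without control replicate 2, 13 of 34 were lost. The all-gene shares above belong to the full lists and the widened genes, and do not apply to these counts.

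In bases, the 35 members together had 11317 and 9584 bases covered with vitamin C, against 55769 and 40904 in controls. The means were 10450.5 ± 1225 bases with vitamin C and 48336.5 ± 10511 bases in controls (SD, n = 2 each), a log2 ratio of -2.21. The same ratio over all protein-coding genes was -1.61, and no test was made over the members as a group. At 27 of the 29 genes (93.1%) the bases covered were lower in both vitamin C libraries than in both controls, against 90.2% of all genes with a peak in both controls. The exceptions, whose groups overlapped, were AURKA and BUB1B. With lists of equal length 12 of the 19 members with a peak in both controls were lower in both vitamin C libraries. The log2 ratio was then -1.02, and the mean difference turned positive at CCNB2, AURKB, BUB3, KIF11 and TOP2A. The all-gene values of 90.2% and -1.61 belong to the full lists and are no reference for these. At none of the 35 members on the full lists were the covered bases higher in both vitamin C libraries, against 0.0801% of all genes. The median member of the 29 had 267 bases covered with vitamin C and 1417 in controls, against 251 and 1013.5 bases over all such genes.

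**Figure D1:**
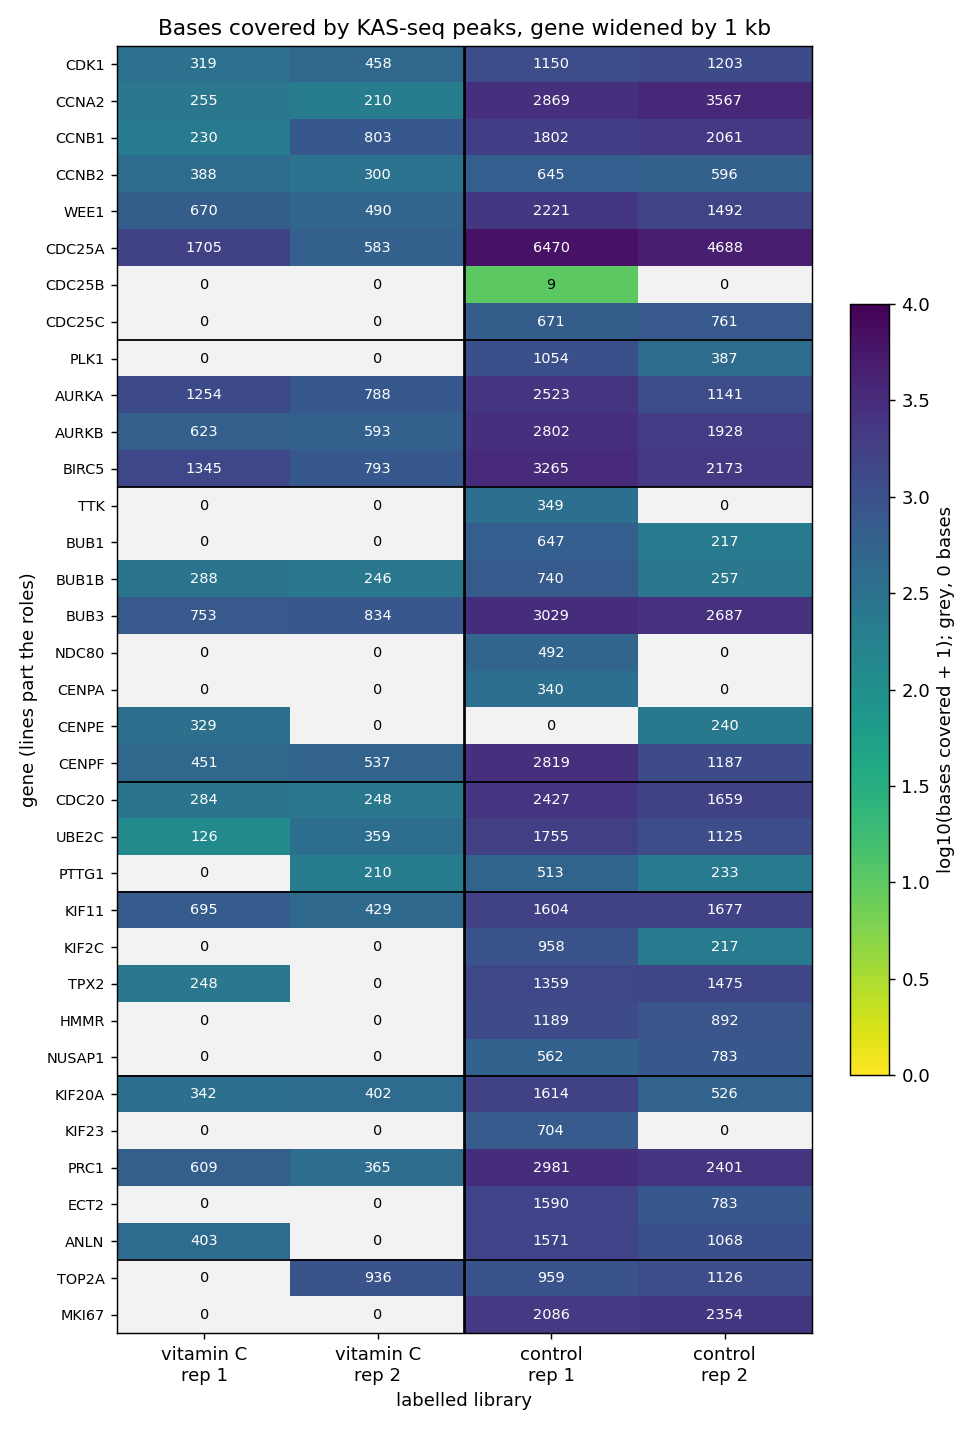
Bases covered by KAS-seq peaks in each gene widened by 1 kb. Rows are the 35 genes in the order of their roles, columns are the 2 vitamin C and the 2 control libraries, each cell prints the bases covered, and colour gives log10 of bases covered plus 1 with grey for 0. Vitamin C columns have a peak at 20 and 19 genes and control columns at 34 and 30, and the grey cells lie mostly with vitamin C.

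Among the genes of CDK1 control, 6 were kept of the 7 that both controls had called (85.7%, against 49.7% of all such genes). CDK1 (chromosome 10, 60778331 to 60794852), the kinase that starts mitosis, had 319 and 458 bases covered with vitamin C, against 1150 and 1203 in controls (exact two-sided permutation p = 0.3333, as for every member whose groups do not overlap). All 4 libraries had a peak across its start, at positions -10 to 308 and -10 to 225 from the start with vitamin C, and at -16 to 346 and -38 to 337 in controls. The summit of this peak stood at 18.8 and 16.1 times the mean coverage with vitamin C, against 33.0 and 30.6 times in controls. What CDK1 lacked with vitamin C was a region inside the gene (60790600 to 60791095), which both controls held at 15.9 and 17.7 times the mean. By the authors' fold this region ranked low in control replicate 2, at percentiles of 51.9 and 6.92 within the lists of control replicates 1 and 2.

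The cyclins that activate CDK1 differed in where they kept their peaks. CCNB1 (chromosome 5, 69167150 to 69178245), cyclin B1, had 230 and 803 bases covered with vitamin C and 1802 and 2061 in controls. Its start peak was present in all 4 libraries between 103 and 567 bases after the start, and a second region past the gene end reached 2838 bases in control replicate 2. CCNA2 (chromosome 4, 121816444 to 121823883), cyclin A2, had 255 and 210 bases covered with vitamin C, against 2869 and 3567 in controls, which is 13.8-fold lower by the means and the largest ratio among the 17 kept genes. The groups stand far apart, yet CCNA2 counts as kept through single peaks that the vitamin C libraries do not share. In vitamin C replicate 1 the peak lay past the gene end, in a region that also touches EXOSC9, and in replicate 2 it lay inside the gene. CCNB2 (chromosome 15, 59105146 to 59125045), cyclin B2, had 388 and 300 bases covered with vitamin C and 645 and 596 in controls. Its vitamin C peaks, at positions -507 to -120 and -506 to -207 from the start, met a peak of control replicate 1 at that site and none of control replicate 2.

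The kinase and phosphatases that set CDK1 activity held the gene with the most covered bases in controls, summed over its peaks, and also genes with almost none. CDC25A (chromosome 3, 48157146 to 48188417), which activates cyclin-dependent kinases at the G1/S and G2/M steps, had 1705 and 583 bases covered with vitamin C, against 6470 and 4688 in controls, in 4 and 2 peaks with vitamin C and 10 and 9 peaks in controls. Each of its control sums was the highest of the family, and the vitamin C libraries lay far apart. WEE1 (chromosome 11, 9573670 to 9589985), the inhibitory kinase, had 670 and 490 bases covered with vitamin C and 2221 and 1492 in controls. One of its regions, inside the gene at 9581027 to 9581441, had summits of 26.1 and 29.9 times the mean with vitamin C and 26.9 and 23.6 times in controls, so the groups overlapped there. CDC25C (chromosome 5, 138285265 to 138338355), the phosphatase that acts on CDK1 at mitotic entry, had 0 and 0 bases covered with vitamin C, against 671 and 761 in controls. Both controls had CDC25C peaks just after the start and about 1 kb before it, all of which also touch FAM53C. CDC25B, a further CDC25 phosphatase, was all but free of peaks: 9 bases at the edge of its window in control replicate 1 and 0 in the other 3 libraries.

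Of the Polo and Aurora kinases and survivin, 3 of 4 genes were kept (75%, against 49.7% of all genes with a peak in both controls). PLK1 (chromosome 16, 23678889 to 23690367), the Polo kinase needed for spindle assembly and mitotic entry, had 0 and 0 bases covered with vitamin C, against 1054 and 387 in controls. Its shared control region (23679350 to 23679910) began 461 bases after the start and stood at 26.9 and 22.4 times the mean. Shared control regions of the family had a median height in controls of 24.7 times where both vitamin C libraries met them. The median was 18.3 times where 1 did and 16.8 times where neither did. AURKB (chromosome 17, 8204731 to 8210575), the Aurora kinase of the chromosomal passenger complex, had 623 and 593 bases covered with vitamin C and 2802 and 1928 in controls. Both vitamin C libraries kept its region at the gene end (16.3 and 16.1 times the mean, against 19.6 and 16.5 times in controls) and had no peak within 1 kb of its start, where both controls had one. BIRC5 (chromosome 17, 78214253 to 78225635), survivin of the same complex, had 1345 and 793 bases covered with vitamin C and 3265 and 2173 in controls. AURKA (chromosome 20, 56369390 to 56392215), the Aurora kinase of the spindle poles, had 1254 and 788 bases covered with vitamin C, against 2523 and 1141 in controls. The AURKA groups overlapped (exact two-sided permutation p = 0.667), and a region at its lower end also touches FAM210B.

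Of the 8 spindle checkpoint and kinetochore genes, 4 had a peak in both controls. BUB3 (chromosome 10, 123154402 to 123170467), a checkpoint protein, had 753 and 834 bases covered with vitamin C and 3029 and 2687 in controls. BUB1B (chromosome 15, 40161069 to 40221123), which encodes the checkpoint protein BUBR1, had 288 and 246 bases covered with vitamin C, against 740 and 257 in controls, with overlapping groups (exact two-sided permutation p = 0.667). The BUB1B peak lay across the start in all 4 libraries, with summits of 20.4 and 16.1 times the mean with vitamin C and 22.03 and 16.5 times in controls. Of the start regions with a peak in all 4 libraries, at CDK1, CCNB1, BUB1B, KIF11 and KIF20A, this one had the most similar heights in the groups. CENPF (chromosome 1, 214603195 to 214664571), a large kinetochore protein, had 451 and 537 bases covered with vitamin C and 2819 and 1187 in controls, with a pair of neighbouring shared regions centred 47013.5 and 47989.5 bases after the start. BUB1, the checkpoint kinase, had 0 and 0 bases with vitamin C against 647 and 217 in controls, but its control peaks lay at different sites and no region was shared. TTK (the MPS1 checkpoint kinase), NDC80 (a microtubule-binding kinetochore protein) and CENPA (the centromeric histone) were covered in control replicate 1 alone, over 349, 492 and 340 bases, with NDC80 in 2 separate peaks. CENPE, a kinetochore motor, had 329 and 0 bases covered with vitamin C and 0 and 240 in controls, at different sites (exact two-sided permutation p = 1).

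The APC/C group holds a case in which a kept gene rests on its neighbour. CDC20 (chromosome 1, 43358981 to 43363203), the APC/C activator, had 284 and 248 bases covered with vitamin C, against 2427 and 1659 in controls. Its vitamin C peaks lay past the gene end, within ELOVL1, in a region that stood at 39.2 and 36.7 times the mean with vitamin C and 56.3 and 48.3 times in controls. The CDC20 regions that both controls held before its start and inside the gene, at 11.8 to 17.7 times the mean, had no vitamin C peak. UBE2C (chromosome 20, 45812644 to 45816952), the ubiquitin-conjugating enzyme of the APC/C, had 126 and 359 bases covered with vitamin C and 1755 and 1125 in controls. PTTG1, securin, had 0 and 210 bases covered with vitamin C, against 513 and 233 in controls, all around the start.

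The spindle motor and microtubule genes were the role with most lost members, 3 of 5 (60%, against 26.9% of all genes with a peak in both controls). With lists of equal length HMMR was the only 1 of the 3 still lost. KIF11 (chromosome 10, 92593130 to 92655395), the motor that separates spindle poles, was the exception that kept a peak in all 4 libraries, with 695 and 429 bases covered with vitamin C and 1604 and 1677 in controls. Its promoter peak, which ended at positions -2 and -56 from the start with vitamin C and at -2 and -20 in controls, stood at 22.04 and 20.7 times the mean with vitamin C, against 25.7 and 25.9 times in controls. HMMR (chromosome 5, 163460632 to 163491941), a microtubule-binding protein of the spindle, had 0 and 0 bases covered with vitamin C and 1189 and 892 in controls. The control region over the HMMR promoter, 163460334 to 163461516, stood at 19.6 and 20.02 times the mean. A further control region upstream of it lies partly outside the window, touches NUDCD2, and was met by a peak of vitamin C replicate 1 outside the window. KIF2C, a microtubule-depolymerising motor, had 0 and 0 bases with vitamin C against 958 and 217 in controls, and NUSAP1, which bundles spindle microtubules, had 0 and 0 with vitamin C against 562 and 783 in controls. At both genes the 2 controls had their peaks at different sites. TPX2, an Aurora A activator, had 248 and 0 bases covered with vitamin C, against 1359 and 1475 in controls.

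Midzone and cytokinesis genes were divided between the patterns. PRC1 (chromosome 15, 90966040 to 90994535), which bundles midzone microtubules, had 609 and 365 bases covered with vitamin C and 2981 and 2401 in controls. In controls its 8 and 6 peaks lay towards the far end of the gene and past it, where it overlaps the antisense PRC1-AS1. As at CCNA2, PRC1 counts as kept through peaks that the vitamin C libraries do not share. One of the PRC1 peaks of vitamin C replicate 1, inside the gene at 90988389 to 90988729, met no control peak. KIF20A, a midzone motor, had 342 and 402 bases covered with vitamin C and 1614 and 526 in controls. The KIF20A vitamin C peaks lay before its start in sequence that also touches BRD8. ECT2 (chromosome 3, 172750726 to 172829265), the exchange factor that starts furrow ingression, had 0 and 0 bases covered with vitamin C, against 1590 and 783 in controls. ANLN, the cytokinetic scaffold anillin, had 403 and 0 bases with vitamin C and 1571 and 1068 in controls, and KIF23, the centralspindlin motor, had peaks in control replicate 1 alone, of 704 bases in all.

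Of the mitotic chromosome proteins, MKI67 had the most covered bases among the lost genes. MKI67 (chromosome 10, 128096659 to 128126423), the Ki-67 proliferation marker that coats mitotic chromosomes, had 0 and 0 bases covered with vitamin C, against 2086 and 2354 in controls. Its widest control region, 1657 bases at 128104648 to 128106304 inside the gene, stood at 26.9 and 23.6 times the mean. TOP2A (chromosome 17, 40388525 to 40417896), the topoisomerase that untangles sister chromatids, had 0 and 936 bases covered with vitamin C, against 959 and 1126 in controls. The vitamin C libraries lie far apart at TOP2A, since replicate 2 alone had peaks in the window, at the promoter, inside the gene and past its end.

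Peaks of the vitamin C libraries mostly fell on sites that the controls also held. The members' peaks numbered 32 and 33 with vitamin C and 123 and 93 in controls, with median widths of 324 and 300 bases with vitamin C and 369 and 377 in controls. Of the peaks of vitamin C replicate 1, 90.6% met a peak of control replicate 1 and 81.3% a peak of control replicate 2. For vitamin C replicate 2 the shares were 84.8% and 75.8%. At all protein-coding genes these 4 shares were 90.1%, 86.3%, 88.0% and 83.9% in the same order. Between the controls, 56.1% of the members' peaks of replicate 1 met a peak of replicate 2 and 79.6% of those of replicate 2 met a peak of replicate 1, against 53.4% and 67.6% at all genes. Such shares also follow the length of the list that is met, and the control lists were the longer ones.

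Position within the gene went with whether a control region was met. Merging the control peaks gave 142 regions at the members, of which 69 held a peak of both controls (48.6%, against 40% of regions at all protein-coding genes). Both vitamin C libraries met 20 of the 69 (29.0%, against 32.8% of such regions at all genes), 1 library met 12 (17.4%), and neither met 37 (53.6%, against 41.9%). A region that reached past the widened gene could be met by a peak outside it. In vitamin C replicate 1 this held for a region of TOP2A (40386548 to 40387649) and one of CCNB1 (69178118 to 69180955). In vitamin C replicate 2 it held for the same TOP2A region and for one of WEE1 (9590148 to 9592430). Each of these regions was counted as met in both. Of the 36 shared regions within 1 kb of a gene end, 14 (38.9%) were met in both vitamin C libraries, against 44.1% at all genes, and 14 (38.9%) in neither, against 32.5%. Of the 33 shared regions deeper inside the genes, 6 (18.2%) were met in both, against 26.5% at all genes, and 23 (69.7%) in neither, against 47.4%. Regions inside the members were thus met less often than those near their ends, as over all genes, and no test was made of the difference from all genes.

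Strength went along with position. The regions near the gene ends had a median control percentile of 71.9 for the authors' fold within its own list, against 46.6 for those inside the genes, and median widths of 617.5 and 494 bases in the same order. The part of strength in the positional difference was not tested.

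The start and the end of the genes can be told apart at the 28 members with an annotated start. A peak lay within 1 kb of the start in 6 and 8 of them with vitamin C, against 19 and 15 in controls. These are 21.4% and 28.6% with vitamin C and 67.9% and 53.6% in controls, against 9.97% and 9.51% with vitamin C and 22.4% and 19.01% in controls over all 15811 genes with an annotated start. Of the 14 with such a peak in both controls, 6 (42.9%) had none with vitamin C, against 32.1% of all genes with a start peak in both controls. These are CCNA2, CDC25C, PLK1, AURKB, CDC20 and HMMR. CCNA2 is among them by an edge overlap of 26 and 227 bases in control replicates 1 and 2. The summits of those CCNA2 peaks lay inside the gene, 1177 and 1198 bases after the start. A start peak was kept in all 4 libraries at another 6 (42.9%, against 43.5%), which are CDK1, CCNB1, CCNB2, BUB1B, KIF11 and KIF20A. At the far end, 8 genes had a peak within 1 kb in both controls, of which MKI67 (12.5%, against 31% of all genes) had none with vitamin C and CDC25A, AURKB and CDC20 (37.5%, against 45.2%) had one in all 4 libraries. Loss of the start peak and loss of the gene are thus not the same set, since CCNA2, AURKB and CDC20 counted as kept through peaks elsewhere.

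Of the bases covered at these 28 members, a larger share lay at the gene starts and ends with vitamin C. Within 1 kb of the start lay 29.7% and 36.0% of their bases covered with vitamin C, against 21.7% and 18.0% in controls. Within 1 kb of the end lay 37.7% and 32.2% with vitamin C and 20.9% and 26.2% in controls. The same shares over all genes with an annotated start were 21.0% and 20.7% at the start and 22.1% and 21.8% at the end with vitamin C, against 16.5% and 17.3% at the start and 17.4% and 18.1% at the end in controls. The groups did not overlap in any of these comparisons.

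**Figure D2:**
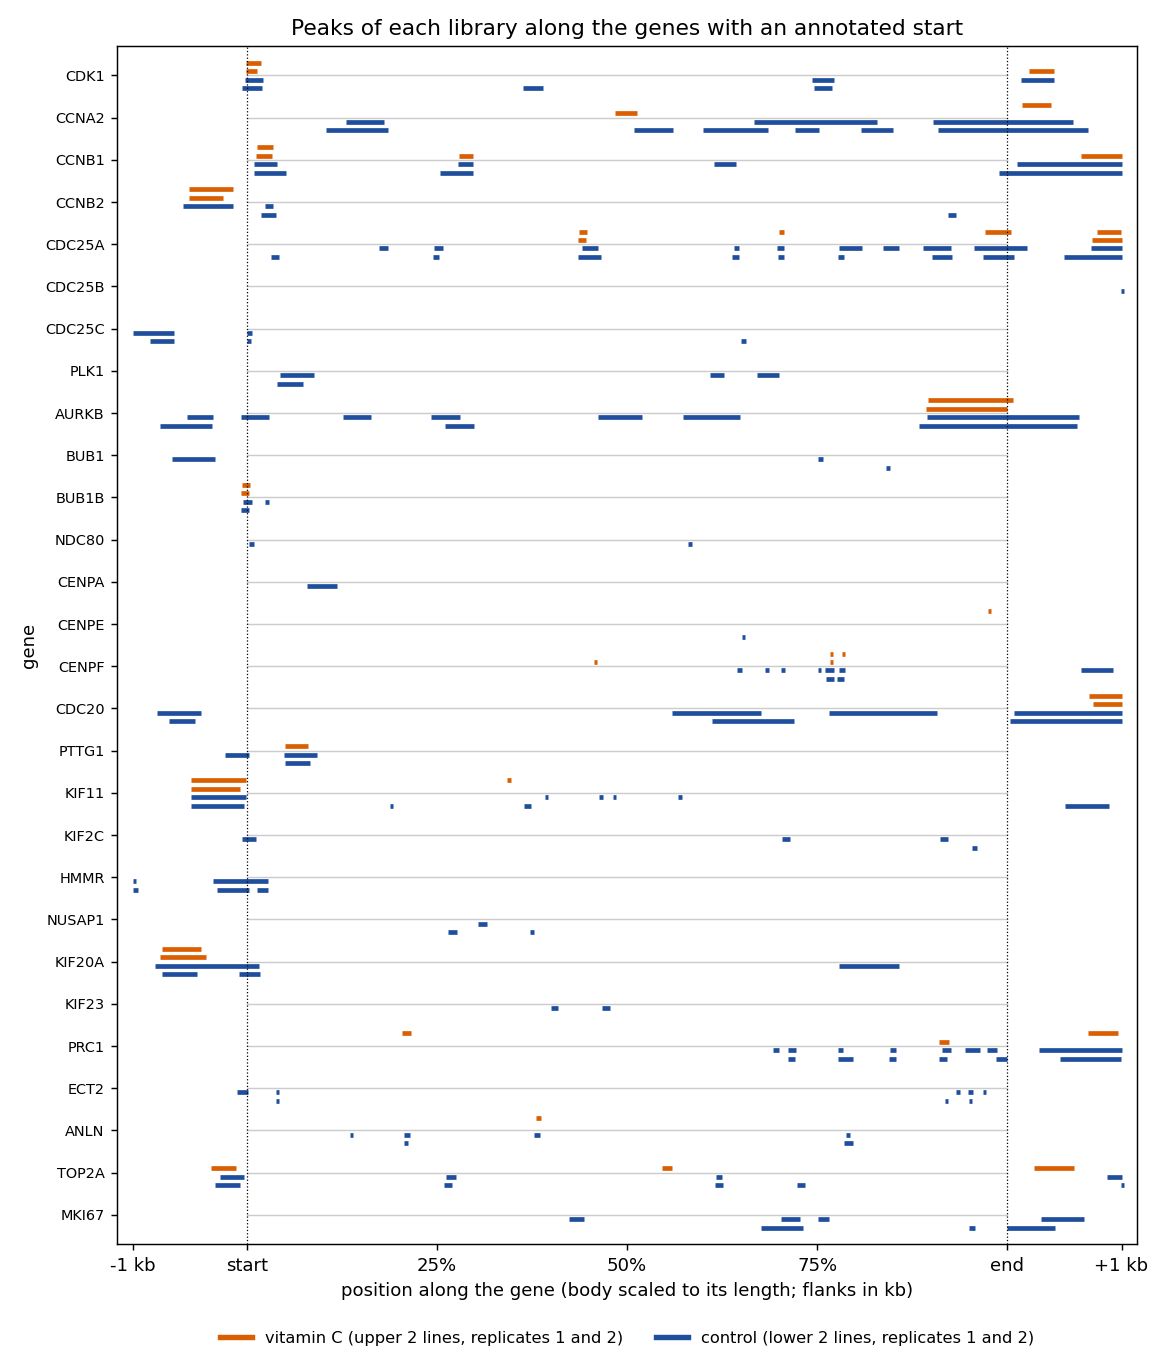
Peaks of each library along the 28 genes with an annotated start, drawn 5′ to 3′ from left to right, with the gene body scaled to its length and 1 kb on each side in kb. Orange lines are peaks of vitamin C replicates 1 and 2 and blue lines below them are peaks of control replicates 1 and 2. Vitamin C peaks lie mostly above a control peak, and the start peaks of CDK1, CCNB1, BUB1B, KIF11 and KIF20A are present in all 4 lines.

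The shared control regions that were met with vitamin C were the stronger ones in controls. Regions met in both vitamin C libraries had a median control summit of 24.7 times the mean coverage and a median width of 848 bases. Regions met in 1 had 18.3 times and 560 bases, and regions met in neither had 16.8 times and 496 bases. The ranges overlapped widely, at 15.0 to 52.3 times for regions met in both and 11.4 to 26.3 times for those met in neither. All 37 regions met in neither stood, in controls, above the lowest summit called in the vitamin C lists (8.16 and 8.04 times). Their selection largely set this, since they had to be called in both controls, where the lowest summits were 7.34 and 7.07 times. The height needed for a call is also greater where the local background is higher. The comparison therefore cannot tell how far these regions were from a call with vitamin C. By summit over mean coverage, regions of ANLN, MKI67 and PLK1 are the highest of those met in neither. Their rank by the authors' fold, which is taken over the local background, is not as high: the percentiles in control replicates 1 and 2 were 0.427 and 29.4 for the ANLN region, 1.48 and 45.4 for the MKI67 region and 63.9 and 77.1 for the PLK1 region.

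Height could also be compared at the 20 member regions called in all 4 libraries. The median summit was 18.4 and 16.1 times the mean coverage with vitamin C, against 22.6 and 24.7 times in controls. At 15 of the 20 (75%) the summit was lower in both vitamin C libraries than in both controls, against 75.9% of 3995 such regions at all protein-coding genes, and at 0 it was higher in both, against 0.676%. The ratio of the vitamin C mean to the control mean ran from 0.547 to 1.11 with a median of 0.780, against a median of 0.721 over all genes. Summits at the G2 and mitosis genes were thus lower with vitamin C by a ratio near that of all genes.

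**Figure D3:**
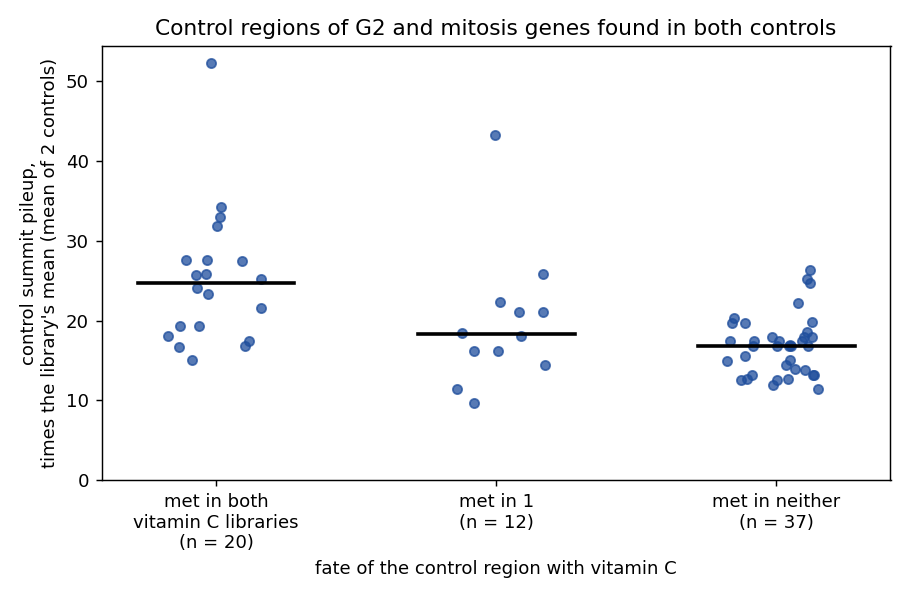
Control summit height of the 69 regions found in both controls at the G2 and mitosis genes, in multiples of the library's mean coverage (mean of 2 controls), grouped by whether both vitamin C libraries, 1 or neither had a peak there. Points are regions and black lines are medians, which stand at 24.7, 18.3 and 16.8 times the mean.

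Other genes of mitosis were also covered less with vitamin C. Of 115 genes in 6 further lists, 93 had a peak in both controls, and 36 of these (38.7%) were lost and 41 (44.1%) kept, against 26.9% and 49.7% over all genes. At 91 of the 93 (97.8%) the covered bases were lower in both vitamin C libraries, against 90.2% of all genes. The log2 ratio of their summed bases was -1.87, against -2.21 for the 35 members, and neither difference between the sets was tested. The kinetochore and checkpoint list had 14 of 26 genes lost and 9 kept. CENPO of the inner kinetochore had 0 and 0 bases covered with vitamin C, against 1670 and 1837 in controls. CENPQ of the same inner kinetochore network had 0 and 0 with vitamin C against 848 and 1867 in controls. Kept genes included CENPM, with 538 and 2040 bases with vitamin C and 7763 and 4927 in controls, and MAD1L1, with 952 and 920 with vitamin C and 3226 and 2450 in controls. In the cohesin list, 6 of 12 genes were lost and 6 kept. RAD21, the cohesin subunit that separase cleaves, had 0 and 0 bases with vitamin C and 1207 and 1089 in controls. SGO1, shugoshin, which protects centromeric cohesion, had 0 and 0 bases with vitamin C and 802 and 1167 in controls, while SMC1A, a core cohesin subunit, had 4173 and 4163 bases with vitamin C and 11363 and 9473 in controls. STAG2, a further cohesin subunit, had 2266 and 862 bases with vitamin C and 2761 and 2826 in controls.

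Condensin was the list without a lost gene (all genes: 26.9% lost and 49.7% kept). Of its 8 genes, 5 were kept (62.5%) and the other 3 had a peak in 1 vitamin C library. Its median control coverage, 2962.25 bases, was the highest of the further mitosis lists, and the kinetochore and checkpoint list had the lowest, 915.75. The lists between did not keep this order: cohesin (1266 bases) had 50% lost, and the spindle, midzone and cytokinesis list (1138 bases) 27.8%. The part of control coverage in these shares was not tested. NCAPH, a condensin I subunit, had 1450 and 1556 bases covered with vitamin C, against 4639 and 3495 in controls, and NCAPG2 of condensin II had 1556 and 1866 with vitamin C against 4229 and 2416 in controls. Among APC/C genes, 6 of 14 were lost (42.9%) and 5 kept (35.7%). ANAPC7, an APC/C subunit, had 0 and 0 bases with vitamin C against 6080 and 2711 in controls, more control bases than any lost gene of the 35, whereas UBE2S, the E2 that extends ubiquitin chains for the APC/C, had 2493 and 2577 with vitamin C against 4892 and 4264 in controls. CDC27, a further subunit, had 0 and 0 with vitamin C against 2226 and 822 in controls, and the activator FZR1 had 2761 and 2260 with vitamin C against 3276 and 3242 in controls. Among mitotic entry and cell cycle transcription genes, 5 of 15 were lost (33.3%) and 6 kept (40%). Both outcomes occurred among factors that act on the G2 and M promoters: MYBL2, also known as B-MYB, had 0 and 0 bases with vitamin C and 3179 and 2001 in controls, and FOXM1 had 547 and 316 with vitamin C and 2260 and 2442 in controls. LIN9, a MuvB subunit, had 0 and 0 with vitamin C and 2100 and 219 in controls, and ENSA, an inhibitor of PP2A-B55 in mitosis, had 1714 and 1161 with vitamin C and 3712 and 3470 in controls. In the further spindle, midzone and cytokinesis list, 5 of 18 were lost (27.8%, near the share of all genes) and 10 kept (55.6%). TACC3, a spindle microtubule protein, had 0 and 0 bases with vitamin C against 968 and 962 in controls, and the motor KIFC1 had 0 and 0 with vitamin C against 636 and 498 in controls. The motors KIF18B and KIF22 were kept: KIF18B had 1251 and 344 bases with vitamin C against 3250 and 3113 in controls, and KIF22 had 1209 and 1470 with vitamin C against 3526 and 2813 in controls.

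The DNA replication and G1/S genes, which act one step earlier in the cycle, had a lower share of lost genes. Of 56, 53 had a peak in both controls, with 8 lost (15.1%) and 37 kept (69.8%). The G2 and mitosis genes had 8 of 29 lost (27.6%) and 17 of 29 kept (58.6%). The all-gene shares were 26.9% and 49.7%, so the members' share lost was close to that of all genes. Replication genes also had more control coverage, with a median of 2079.5 bases, against 1417 at the G2 and mitosis genes. The part of control coverage in the lower share lost was not tested. CDC25A is in both lists. Covered bases were lower in both vitamin C libraries at 50 of the 53 replication genes (94.3%, against 90.2% of all genes with a peak in both controls). RRM2, a ribonucleotide reductase subunit, had 3930 and 4314 bases covered with vitamin C and 10598 and 10005 in controls, and the transcription factor gene E2F3 had 2160 and 2097 with vitamin C and 8464 and 6302 in controls. Among the lost, RPA3 of the single-strand binding complex had 0 and 0 bases with vitamin C and 1399 and 790 in controls, and RFC1 of the clamp loader had 0 and 0 with vitamin C and 800 and 1233 in controls. The difference between the 2 sets was not tested, and both share the same 4 libraries.

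**Figure D4:**
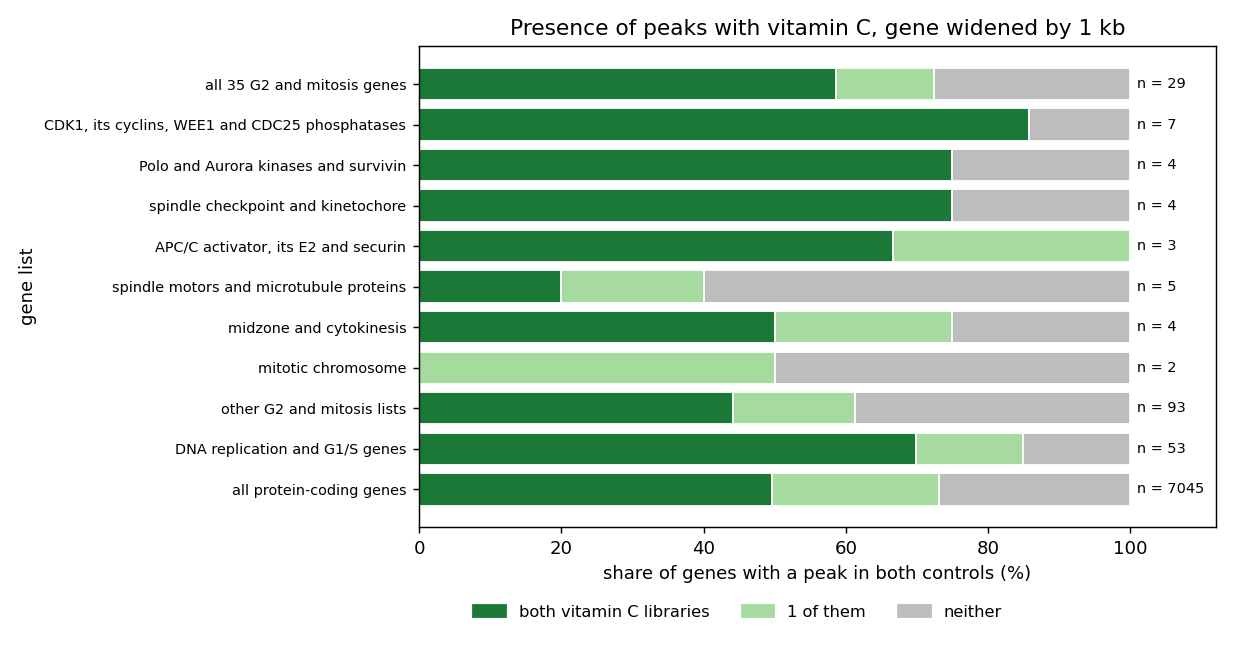
Share of the genes with a peak in both controls that had a peak in both vitamin C libraries (dark green), in 1 of them (light green) or in neither (grey), by gene list, in percent, with the number of genes at the right. The bar of all 35 members ends its dark part at 58.6%, against 69.8% for replication genes, 44.1% for the other mitosis lists and 49.7% for all protein-coding genes.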

How the data were processed

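KAS-seq peak lists of 4 labelled HEK293T libraries (2 vitamin C, 2 control) were used. The submitters' processing notes name Bowtie2 2.4.5 and MACS2 2.2.7.1 besides bcl2fastq 2.19, Trim Galore, cutadapt and deepTools, and the build hg38. No order or settings of these tools are given in the labels used. Every deposited list holds, per peak, its position and summit, a score, the authors' fold (a linear ratio over background) and −log10 p and −log10 q values. The highest q was 0.00999. Fold ranked or filtered peaks within a list only. Peaks outside chromosomes 1 to 22 and X (4.23% to 5.06%) were left out.

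Gene positions were RefSeq GRCh38.p14. Any base of a peak in the gene widened by 1 kb counted as presence. Percent values for all genes use the same rule. Regions were merged control peaks, met by an overlap of 1 base inside or outside the widened gene. Summit fragments and mean coverage were solved from the fold and −log10 p of each peak as deposited (tolerance 0.0005), which worked for 99.8% to 100.0% of peaks; vitamin C replicate 1 needed its fragments scaled by 0.776. Groups were compared by exact two-sided permutation. Computation used Python 3.11.15, numpy 2.4.6, pandas 2.3.3 and scipy 1.17.1, tested on simulated data. All 35 members are named, with up to 2 lost and 2 kept genes of most control bases in each other list. The members and lists were chosen with earlier results of these data known.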

Additional observations from a re-analysis of the deposited data

How the results depend on the processing

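Peaks are threshold calls, and the counts moved with list length and with the window. With lists of equal length (the 9816 peaks of lowest q in each), 19 members had a peak in both controls. Of these, 2 were lost (HMMR and PLK1), 15 kept and 12 lower in both vitamin C libraries. Gained members numbered 1 (CCNB2), and the log2 ratio of summed bases was -1.02. The differences in covered bases (vitamin C minus control) then turned at CCNB2 (344), AURKB (2), BUB3 (554.5), KIF11 (82.5) and TOP2A (318). Without widening the genes, 11 members were kept and 12 lost. With the ends of the genes alone, 5 were lost, the log2 ratio was -1.73 and the TOP2A difference was 9. CENPE, which had a peak in 1 library of each group, turned to -120 at −log10 q of at least 5. Leaving out each library in turn gave 8 to 13 lost, 17 to 19 kept, 0 to 0 gained and 27 to 34 lower members, with log2 ratios of -2.42 to -1.97. The 13 lost, of 34, came without control replicate 2, when the genes with a peak in control replicate 1 alone entered. Over the same omissions the difference ran from -473 to 10 at BUB1B (10 without control replicate 1) and from -120 to 209 at CENPE (-120 without vitamin C replicate 1, -75.5 without control replicate 1). Replicate numbers do not pair the libraries by any label, and the correlation of their differences over 7045 genes was 0.0513; with the replicate block 29 members were lower and the log2 ratio was -2.20. Without peaks that touch another protein-coding gene, an alternative chosen after seeing the data, 9 were lost (CDC20 and KIF20A among them) and 14 kept. The −log10 q limit gave 6 lost and 13 kept of 26, fold of at least 4 gave 8 and 16 of 29, and widening by 5 kb gave 6 and 23 of 32. Coverage of about 1 fragment per position limits what can be called, so absence from a list is not absence of signal.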
